A study of Mus musculus with 13 samples.

Results

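CD4 conventional T cells and CD8 T cells were compared in B16-F10 melanomas from which regulatory T (Treg) cells had been ablated. The 6 libraries used, of 13 in the series, were those labelled CD4 (CD4 DTx, n = 3) and CD8 (CD8 DTx, n = 3) from tumors of diphtheria toxin (DTx)-treated animals, and the comparison ran over all genes that reached 10 normalized reads in 2 or more of the 13 libraries. B16-F10 is a mouse melanoma line, grown here under the skin of syngeneic Foxp3-EGFP-DTR mice. Their Foxp3 locus expresses EGFP together with a receptor for the toxin, and DTx therefore kills Foxp3-expressing cells in the whole body and not in the tumor alone. All groups carried this allele and the tumor, including the PBS-treated groups set beside the DTx groups below, which were CD4 conventional T cells (CD4 PBS, n = 2), CD8 T cells (CD8 PBS, n = 2) and Treg cells (Treg PBS, n = 3). Cells were sorted from adult animals, and according to the study's methods the conventional T cells were sorted as EGFP-negative and the replicates were biological. The labels name an enrichment of CD4 cells before sorting for all libraries, the CD8 libraries included, and do not say whether tumors were pooled, so p-values measure the spread between these libraries.

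CD4 and CD8 T cells arise from a common precursor in the thymus, where the transcription factor ThPOK (encoded by Zbtb7b) directs the helper lineage and Runx3 the cytotoxic lineage. CD4 cells recognise peptides on MHC class II and act largely through cytokines and surface ligands such as CD40 ligand. CD8 cells recognise peptides on MHC class I and kill target cells with perforin and granzymes. In tumors, Treg cells restrain both lineages.

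A normalized read is the unit of the deposited values, a read count divided by 1 factor per library, and all levels below are in that unit and in the order of replicates 1, 2 and 3. The 6 libraries held between 17475086 and 28548352 reads as recovered from the values. The detection floor, 3 recovered reads, came to between 2.77 and 4.04 normalized reads in these libraries, and it covers counting error only. Log2 fold changes give CD4 DTx over CD8 DTx on the log2(value + 1) scale, so that negative values are higher in CD8 cells. A gene was called at a Benjamini-Hochberg adjusted p under 0.05 over all genes tested.

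The lineage transcripts matched the labels in all 6 libraries. Cd4 was at 24015, 23096 and 32503 normalized reads in CD4 DTx and at 413, 0 and 40.4 in CD8 DTx. Cd8b1, the CD8 beta chain, was at 267, 1641 and 2359.9 in CD4 DTx and 64199, 81586 and 37680.0 in CD8 DTx. Cd8a, the alpha chain, was at 103, 711 and 1302 against 48329.5, 44403 and 28002. The groups stood far apart for these genes, and the log2 fold changes were 9.99 (adjusted p = 0.00707 by limma, SE 1.5) for Cd4, -5.84 (adjusted p = 7.39e-04 by limma, SE 0.61) for Cd8b1 and -6.42 (adjusted p = 0.00176 by limma, SE 0.75) for Cd8a. DESeq2 on recovered reads gave 7.45 for Cd4, with no adjusted p. Zbtb7b was at 592, 865 and 1375 in CD4 DTx and 184, 94.4 and 306 in CD8 DTx, without overlap, and its log2 fold change was 2.34 (adjusted p = 0.251 by limma, SE 0.84). DESeq2 called it in DTx (adjusted p = 0.00931 by DESeq2). In PBS its log2 fold change was 8.13 (adjusted p = 0.00207 by limma), with 1004 and 1314 in CD4 PBS and 15.8 and 0 in CD8 PBS. Runx3 was at 3369, 3787 and 5008 in CD4 DTx and 2918, 4384 and 4922 in CD8 DTx, with overlapping ranges and a log2 fold change of 0.0070 (adjusted p = 1 by limma, SE 0.23), 95% interval -0.49 to 0.51. In PBS, Runx3 was at 1546 and 1688 in CD4 cells and 2800 and 2939 in CD8 cells, a log2 fold change of -0.83 (adjusted p = 0.358 by limma). Foxp3 was between 0 and 12.1 in the 6 libraries.

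Of 12667 genes tested, 95 (0.75%) were called higher in CD4 DTx and 113 (0.892%) higher in CD8 DTx. These shares are the background for the counts of called list members below. For all 208, the 3 CD4 libraries lay on the same side of the 3 CD8 libraries, so that each same-numbered pair necessarily differed in the same direction. Among all genes tested, the 3 CD4 libraries lay above the 3 CD8 libraries for 762 (6.02%) and below them for 998 (7.88%). With a log2 fold change above 2 in size, 54 genes (0.426%) were called higher in CD4 DTx and 73 (0.576%) higher in CD8 DTx. For 26 of the 113, all CD4 DTx libraries were at or under the floor, whereas for 7 of the 95 CD4-high genes all CD8 DTx libraries were. The difference between these 2 counts was not tested.

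Same-numbered CD4 and CD8 libraries deviated from their group means together, and a fit with the replicate number as a block called 184 genes (1.45%) higher in CD4 DTx and 230 (1.82%) higher in CD8 DTx, including all 208. The Pearson correlation of log2 levels across all genes tested was between 0.910 and 0.929 for same-numbered CD4 and CD8 libraries and between 0.850 and 0.906 for differently numbered ones. Within a lineage it was between 0.880 and 0.945. Both replicate 3 libraries held transcripts of the Y chromosome and the other 4 did not. The counts of calls rested on single libraries. The 7 PBS libraries share the estimate of the spread, and without them limma called 20 genes higher in CD4 DTx and 50 higher in CD8 DTx, or 0 in each direction with the replicate block (1695 genes at an unadjusted p under 0.05). On recovered reads of all 13 libraries, edgeR called 66 and 65 and DESeq2 226 and 294. Without CD4 DTx replicate 2, 21 genes were called higher in CD4 DTx and 40 higher in CD8 DTx, and without CD4 DTx replicate 3 they were 38 and 57. They were 44 and 38 without CD8 DTx replicate 1, 50 and 31 without CD8 DTx replicate 2, and 27 and 32 without replicate 3 of both lineages. All 208 kept their direction when any 1 of the 6 libraries was left out, which their lack of overlap fixes in advance. Of them, 44 kept their call in all 6 of these fits.

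**Figure D1:**
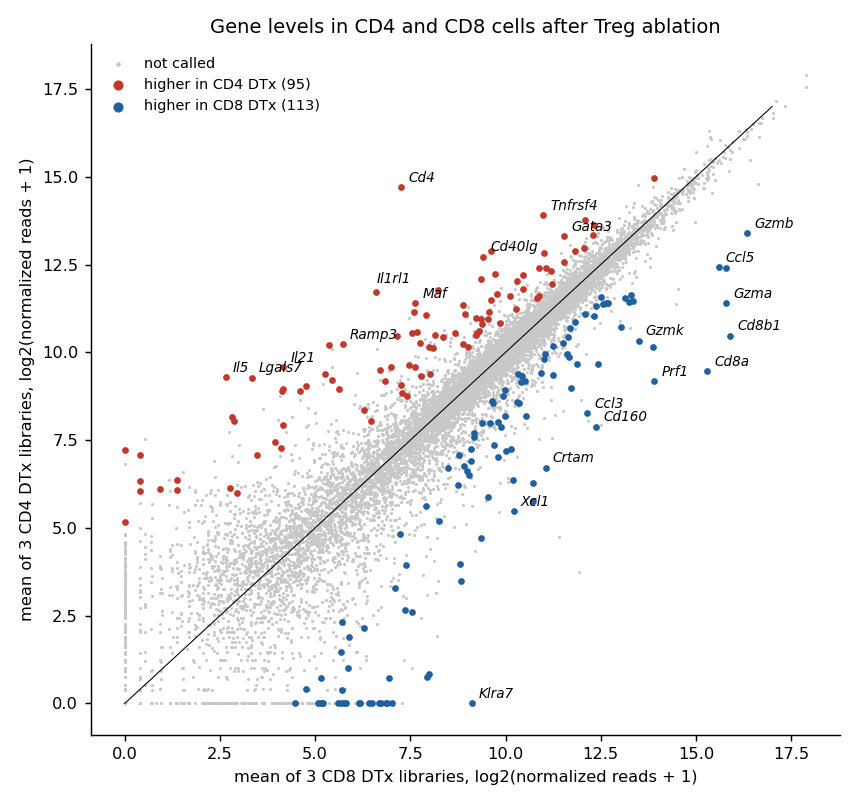
Each point is 1 of 12667 genes, at its mean level in 3 CD8 DTx libraries (x axis) and 3 CD4 DTx libraries (y axis), both in log2(normalized reads + 1), with the line of equality. The 95 genes called higher in CD4 DTx (red) lie above the line and the 113 called higher in CD8 DTx (blue) below it, 26 of them on or close to the floor of the CD4 axis.

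Part of the genes of T cell help were higher in CD4 cells. Of 23 tested help and follicular helper genes, 7 were called, all higher in CD4 DTx (0.75% over all genes tested). The median log2 fold change of this list was 1.39 (-0.01 over all genes tested). Cd40lg, the ligand through which helper cells license B cells and dendritic cells, was at 8937, 5818 and 5502 normalized reads in CD4 DTx and 989, 688 and 374 in CD8 DTx. The lowest CD4 library was above 5 times the highest CD8 library, and the log2 fold change was 3.38 (adjusted p = 9.19e-04 by limma, SE 0.36). Il21, a cytokine that acts on B cells and CD8 cells, was at 1257, 621 and 421 in CD4 DTx and 4.62, 33.7 and 12.1 in CD8 DTx. It was far lower in every CD8 library, with a log2 fold change of 5.66 (adjusted p = 0.032 by limma, SE 1.16). Maf, a transcription factor of cytokine-producing helper cells, was at 2966, 2949 and 2137 in CD4 DTx and 204, 191 and 194 in CD8 DTx. The libraries of a lineage lay close together, and the log2 fold change was 3.75 (adjusted p = 2.42e-04 by limma, SE 0.34). Tnfsf11, which encodes RANK ligand, was at 1163, 1494 and 1569.7 against 132, 63.6 and 226, with a log2 fold change of 3.48 (adjusted p = 0.00483 by limma, SE 0.47). The other called members were Angptl2, Tnfsf8 (CD30 ligand) and Izumo1r (folate receptor 4), with log2 fold changes of 3.27, 2.74 and 2.49. Icos, a costimulatory receptor, was at 42664, 20355 and 20902 against 17348, 9654 and 7147 without overlap, and its log2 fold change was 1.31 (adjusted p = 0.104 by limma, SE 0.36). With the replicate block, 10 members were called, among them Icos (adjusted p = 0.0279 by limma). Between 3 and 5 members were called when single DTx libraries were left out, with 3 without CD4 DTx replicate 2 or 3 and 4 without CD4 DTx replicate 1 or CD8 DTx replicate 2. Cd40lg, Maf and Tnfsf11 kept their calls in all of these fits. Il21 lost its call without any 1 of the 6 DTx libraries (limma, adjusted p between 0.0595 and 0.118). Angptl2 lost its call without CD4 DTx replicates 1, 2 and 3 or CD8 DTx replicates 2 and 3 (limma, adjusted p between 0.0563 and 0.128). Tnfsf8 lost its call without CD4 DTx replicates 1, 2 and 3 or CD8 DTx replicates 1 and 2 (limma, adjusted p between 0.0521 and 0.0808). Izumo1r lost its call without CD4 DTx replicates 2 and 3 or CD8 DTx replicate 1 (limma, adjusted p between 0.061 and 0.113).

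Part of the type 2 helper genes were higher in CD4 cells. Of 20 tested members of the list, 8 were called higher in CD4 DTx and 0 higher in CD8 DTx. Over all genes tested the shares were 0.75% and 0.892%. The median log2 fold change of the list was 2.01. Il5, a growth factor of eosinophils, was at 738, 791 and 356 normalized reads in CD4 DTx and 11.1, 4.82 and 0 in CD8 DTx. The CD8 libraries were near the floor, and the log2 fold change was 7.17 (adjusted p = 0.0249 by limma, SE 1.37). Il4, the cytokine that drives type 2 differentiation, was at 256, 718 and 442 in CD4 DTx and 13.9, 40.4 and 16.2 in CD8 DTx. Every CD4 library was above every CD8 library, with a log2 fold change of 4.31 (adjusted p = 0.039 by limma, SE 0.92). Gata3, the lineage factor of type 2 cells and also a factor of CD4 development, was at 5309.6, 14503 and 10531 in CD4 DTx and 2048, 4295 and 2579 in CD8 DTx. It was present in both lineages, with a log2 fold change of 1.72 (adjusted p = 0.039 by limma, SE 0.37). Il1rl1, the receptor of IL-33, was at 1886, 5156 and 3487 against 217, 319.7 and 353, a log2 fold change of 3.47 (adjusted p = 0.00235 by limma, SE 0.42). Ccr4, a chemokine receptor of type 2 and Treg cells, was at 2032, 3032 and 1788 against 139, 335 and 99.6, a log2 fold change of 3.73 (adjusted p = 0.00849 by limma, SE 0.57). Pparg, a nuclear receptor, had a log2 fold change of 4.83, and Maf is also on the list. Areg, an epidermal growth factor family ligand, was at 0, 0.963 and 0 normalized reads in CD8 DTx, all under the floor. Its highest CD4 DTx library was at 142, and it was at least 16.2-fold higher in CD4 cells (adjusted p = 0.0396 by limma). The log2 fold changes of Areg, 5.15 by limma and 7.41 by DESeq2 on recovered reads, depend on the scale. Pparg lost its call without CD4 DTx replicates 2 and 3 or CD8 DTx replicates 1, 2 and 3 (limma, adjusted p between 0.0582 and 0.125). Areg lost its call without CD4 DTx replicates 2 and 3 or CD8 DTx replicates 1, 2 and 3 (limma, adjusted p between 0.072 and 0.162).

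CD4 DTx replicate 1 was the lowest of the 3 CD4 libraries for Il4, Gata3, Il1rl1, Pparg and Areg, although not for Il5. Il4ra, a subunit of the IL-4 receptor, was at 2339, 6551 and 5555 against 1501, 1994 and 3092, with a log2 fold change of 1.07 (adjusted p = 0.224 by limma, SE 0.36), and was called with the replicate block (adjusted p = 0.0318 by limma). The count of called members was 8 without CD4 DTx replicate 1, 5 without CD8 DTx replicate 2, 4 without CD8 DTx replicate 1, and 3 without CD4 DTx replicate 2, CD4 DTx replicate 3 or CD8 DTx replicate 3. Il5 lost its call without CD4 DTx replicates 1, 2 and 3 or CD8 DTx replicates 2 and 3 (limma, adjusted p between 0.0556 and 0.0988). Il4 lost its call without any 1 of the 6 DTx libraries (limma, adjusted p between 0.0589 and 0.162). Gata3 lost its call without CD4 DTx replicates 2 and 3 or CD8 DTx replicates 1 and 3 (limma, adjusted p between 0.0743 and 0.145). Il1rl1 and Ccr4 kept their calls in all 6 of these fits. Il1rl1 and Gata3 are also expressed by innate lymphoid cells. Of the 12 tested markers of natural killer and innate lymphoid cells, 2 were called higher in each lineage. Those higher in CD4 DTx were Il1rl1 and Gata3 themselves. The summed level of the 12 was between 11271 and 24807 normalized reads in CD4 DTx and between 39789 and 119106 in CD8 DTx. The sum includes Il1rl1, Gata3 and Gzma, which T cells also express, and so it cannot measure innate cells. The part of such cells in these differences was not tested. In sorted populations, more transcript per cell and more cells carrying it cannot be told apart.

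**Figure D2:**
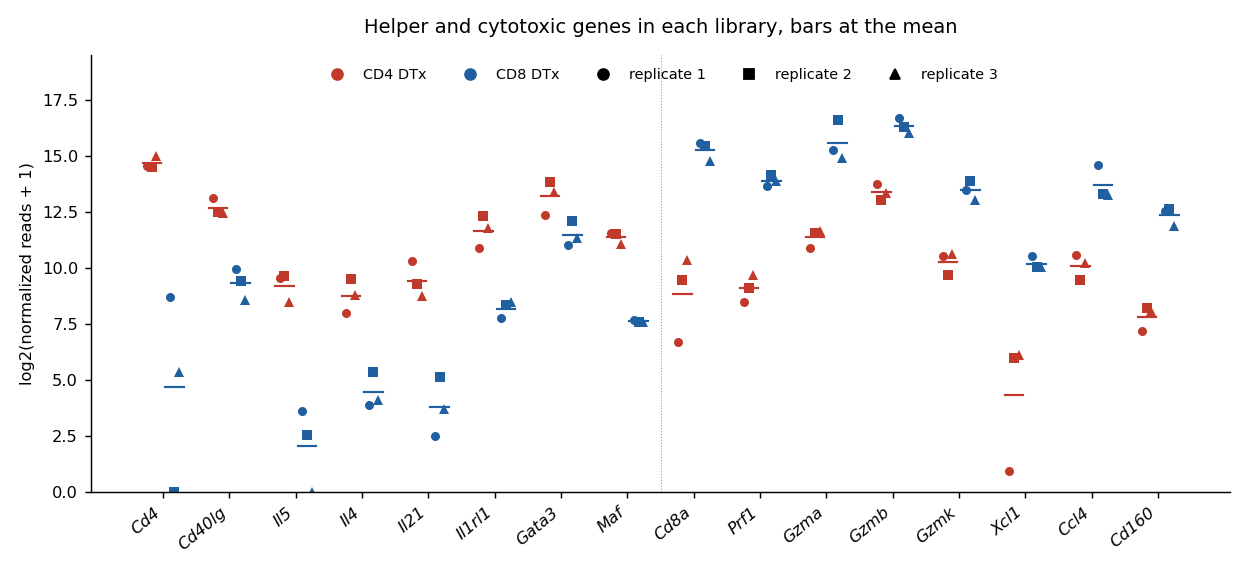
Levels of 8 genes higher in CD4 DTx (left of the dotted line) and 8 higher in CD8 DTx (right) in each of the 6 libraries, in log2(normalized reads + 1), with marker shapes for replicates 1 to 3 and bars at the group mean. For each of these 16 genes the red (CD4 DTx) and blue (CD8 DTx) points do not overlap. Cd4 and Il5 in CD8 DTx and Xcl1 in CD4 DTx each include a library at or under the floor.

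Several genes known from Treg cells were also higher in the Foxp3-negative CD4 cells than in CD8 cells. Of 34 tested members of a Treg-associated list, 7 were called, all higher in CD4 DTx (0.75% over all genes tested). The median log2 fold change was 0.66, and 10 members had a negative one, down to -3.70. All CD4 libraries lay above all CD8 libraries for 15 members and below them for 3 (6.02% and 7.88% over all genes tested). DESeq2 called 11 members higher in CD4 DTx and 1 higher in CD8 DTx. Tnfrsf4, the costimulatory receptor OX40, was at 15811, 17143 and 13279.5 normalized reads in CD4 DTx and 2815, 1402 and 1906 in CD8 DTx. All CD4 libraries lay far above all CD8 libraries, with a log2 fold change of 2.97 (adjusted p = 0.0148 by limma, SE 0.51). Ebi3, a subunit shared by IL-27 and IL-35, was at 677, 511 and 590.0 against 67.4, 12.5 and 48.5, a log2 fold change of 4.04 (adjusted p = 0.00707 by limma, SE 0.60). Il1r2, the decoy receptor of IL-1, was at 2580.0, 2987 and 3807 against 1643, 593 and 1088, a log2 fold change of 1.60 (adjusted p = 0.0403 by limma, SE 0.35). In Treg PBS these genes were at 73550.2, 61302 and 45931, 2449, 2283 and 2613 and 11407, 11852 and 10979.8, above all 6 DTx libraries in each case. Areg, Ccr4, Il1rl1 and Izumo1r, named above under type 2 or help genes, were the other called members. Ccr8, a chemokine receptor of tumor Treg cells, was at 2967, 3737 and 2976 against 1442, 1264 and 1135 without overlap, and its log2 fold change was 1.33 (adjusted p = 0.171 by limma, SE 0.41). The count was 10 with the replicate block, 8 without CD4 DTx replicate 1, 5 without CD8 DTx replicate 1 or 3, 4 without CD4 DTx replicate 3 or CD8 DTx replicate 2, and 3 without CD4 DTx replicate 2. Tnfrsf4 lost its call without CD4 DTx replicate 2 or CD8 DTx replicate 2 (limma, adjusted p between 0.0642 and 0.0693). Il1r2 lost its call without CD4 DTx replicates 1, 2 and 3 or CD8 DTx replicates 2 and 3 (limma, adjusted p between 0.0602 and 0.149). Ebi3 kept its call without any single DTx library.

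Part of the cytotoxic granule genes were higher in CD8 cells. Of 29 tested members of the list, 5 were called, all higher in CD8 DTx (0.892% over all genes tested). The median log2 fold change was -1.11. In 16 of the 29, all 3 CD8 libraries lay above all 3 CD4 libraries, and the opposite was seen for 0 (7.88% and 6.02% over all genes tested). Prf1, which encodes the pore-forming protein perforin, was at 360.0, 546 and 819 normalized reads in CD4 DTx and 12785, 17975 and 14992 in CD8 DTx. The lowest CD8 library was more than 10 times the highest CD4 library, and the log2 fold change was -4.79 (adjusted p = 1.54e-05 by limma, SE 0.29). Gzmb, the granzyme that triggers apoptosis through caspases, was at 13630.3, 8324 and 10438 in CD4 DTx and 104756, 80348 and 65338 in CD8 DTx. It was abundant in both lineages and higher in every CD8 library, with a log2 fold change of -2.95 (adjusted p = 0.0211 by limma, SE 0.54). Gzma, a granzyme with trypsin-like specificity, was at 1901, 2983 and 3246 in CD4 DTx and 39349.8, 99846 and 30229.8 in CD8 DTx. CD8 DTx replicate 2 was the highest, and the log2 fold change was -4.22 (adjusted p = 0.0227 by limma, SE 0.79). Gzmk, another tryptase-like granzyme, was at 1495, 815 and 1551 against 11457, 14836 and 8302, a log2 fold change of -3.18 (adjusted p = 0.00727 by limma, SE 0.48).

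Cst7, cystatin F, an inhibitor of the proteases that process granzymes, was at 2179, 3626 and 2551 normalized reads in CD4 DTx and 11252, 11394 and 6671 in CD8 DTx, a log2 fold change of -1.80 (adjusted p = 0.00922 by limma, SE 0.28). Nkg7, a granule membrane protein, was at 40445, 21458 and 23986 against 119071, 117971 and 64989. Its ranges did not overlap, and its log2 fold change was -1.82 (adjusted p = 0.0702 by limma, SE 0.44). With the replicate block 12 members were called, all higher in CD8 DTx, with Gzmf, Gzmm, Fasl, Nkg7 (adjusted p = 0.006 by limma), Ctsw, Lamp1 and Ctsd added. The count was 4 without CD4 DTx replicate 1, 5 without CD4 DTx replicate 3, 6 without CD8 DTx replicate 3, and 3 without CD4 DTx replicate 2 or CD8 DTx replicate 1 or 2. Gzma lost its call without CD4 DTx replicates 1, 2 and 3 or CD8 DTx replicates 1 and 2 (limma, adjusted p between 0.0584 and 0.0936). Gzmb lost its call without CD4 DTx replicates 2 and 3 or CD8 DTx replicates 1 and 2 (limma, adjusted p between 0.0628 and 0.0859). Prf1, Gzmk and Cst7 kept their calls in all 6 of these fits.

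Since Runx factors are part of the CD8 program, the promoters of called genes were searched for the RUNX core TGTGGT on either strand. RefSeq promoters (GRCm38.p6, 250 bases before to 50 after the first listed start) were matched by symbol for 9390 of the tested genes, 72 of the CD4-high and 87 of the CD8-high genes. The letters were found in 24 of the 87 CD8-high promoters (27.6%) and 6 of the 72 CD4-high promoters (8.33%), against 13.2% of the 9390 and 16.9% of all 27025 promoters of that length. For comparison, the GATA motif AGATAA on either strand, which can share at most an end base with the RUNX core, was found in 5.75% of CD8-high, 6.94% of CD4-high and 6.78% of tested promoters. Prf1, Gzmb and Gzma were among the 24, together with Ccl3, Xcl1, Cd160 and Cst7. Gzmk, Cd8a, Cd8b1, Ccl4, Ccl5, Cd244 and Crtam were not among the 24, for lack of a match or of a promoter. Over all 27025 promoters the GATA share was 11.4%, so both motifs were rarer among tested genes than among all. A match shows only that the letters are present, and the part of RUNX factors in these differences was not tested. The promoters of Prf1, Gzmb and Gzma, chosen among the genes with a match, are printed 5′ to 3′ on the strand of the gene. The RUNX core is in capitals, as its reverse complement where it lies on the other strand. Gzmb holds 2 matches and each of the others 1.
Prf1 (chr10:61297586-61297885, plus strand): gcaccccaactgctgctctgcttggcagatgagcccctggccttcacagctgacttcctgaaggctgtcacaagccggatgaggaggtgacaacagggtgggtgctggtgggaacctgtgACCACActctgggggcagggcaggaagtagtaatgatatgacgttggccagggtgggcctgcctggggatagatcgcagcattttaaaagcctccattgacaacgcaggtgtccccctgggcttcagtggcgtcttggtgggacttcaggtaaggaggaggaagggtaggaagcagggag
Gzmb (chr14:56262285-56262584, minus strand): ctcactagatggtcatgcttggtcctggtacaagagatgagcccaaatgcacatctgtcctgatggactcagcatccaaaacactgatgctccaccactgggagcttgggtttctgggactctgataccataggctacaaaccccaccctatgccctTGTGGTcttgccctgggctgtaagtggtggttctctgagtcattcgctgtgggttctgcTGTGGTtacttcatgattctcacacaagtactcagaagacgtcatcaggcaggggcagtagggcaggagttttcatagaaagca
Gzma (chr13:113100932-113101231, minus strand): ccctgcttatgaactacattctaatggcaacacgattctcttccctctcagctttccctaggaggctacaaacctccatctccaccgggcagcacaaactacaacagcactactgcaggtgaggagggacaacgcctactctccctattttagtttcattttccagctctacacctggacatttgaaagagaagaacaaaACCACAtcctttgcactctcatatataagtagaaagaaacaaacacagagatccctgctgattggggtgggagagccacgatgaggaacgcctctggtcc

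Some receptors shared with natural killer cells were higher in CD8 cells. Of 34 tested members, 10 were called, all higher in CD8 DTx, and the median log2 fold change was -3.14 (-3.12 with the 7 members at or under the floor in all libraries of a lineage set to their lower bound or, where both lineages were there, left out). Klra7, of the Ly49 family of MHC class I receptors, was at 0, 0 and 0 normalized reads in CD4 DTx and 108, 1113 and 432 in CD8 DTx. It was at least 139.5-fold higher in CD8 cells (adjusted p = 0.00158 by limma). Klra3, Klra6 and Klra5 were also at 0 in all CD4 DTx libraries, and were at 115, 171 and 56.5, 58.2, 216 and 43.1 and 31.4, 49.1 and 26.9 in CD8 DTx. They were at least 29.0-, 26.7- and 9.07-fold higher in CD8 cells (adjusted p = 0.00278, 0.00531 and 0.0158 by limma). The Klra genes are near-identical copies, and their separate values are uncertain.

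Cd160, a receptor of cytotoxic lymphocytes, was at 145, 295 and 266 normalized reads in CD4 DTx and 5851, 6378 and 3765 in CD8 DTx, a log2 fold change of -4.52 (adjusted p = 5.33e-04 by limma, SE 0.45). Cd244, the SLAM family receptor 2B4, was at 0, 82.8 and 77.7 against 2386, 1279 and 1433, a log2 fold change of -6.45 (adjusted p = 0.0416 by limma, SE 1.41). Crtam, an adhesion receptor of activated cytotoxic cells, was at 124, 79.8 and 107 against 2069, 2251 and 2041, a log2 fold change of -4.36 (adjusted p = 0.0367 by limma, SE 0.92). The groups did not overlap for these 3 genes. Klre1, Fcer1g and Slamf7 completed the called members, with log2 fold changes of -4.44, -3.45 and -1.72. Klrk1, the activating receptor NKG2D, was at 4426, 1204 and 2343 against 34639, 16124 and 17709 and its log2 fold change was -3.21 (adjusted p = 0.266 by limma, SE 1.17). The count was 13 with the replicate block, 10 without CD4 DTx replicate 1, 7 without replicate 3 of either lineage, 5 without CD8 DTx replicate 1, and 4 without CD4 DTx replicate 2 or CD8 DTx replicate 2. For Cd244, with a CD4 library at 0, DESeq2 on recovered reads gave -5.0. Cd244 lost its call without CD4 DTx replicate 2 or CD8 DTx replicates 1, 2 and 3 (limma, adjusted p between 0.0571 and 0.142). Klre1 lost its call without CD4 DTx replicate 2 or CD8 DTx replicates 1 and 2 (limma, adjusted p between 0.0535 and 0.0538). Fcer1g lost its call without any 1 of the 6 DTx libraries (limma, adjusted p between 0.0521 and 0.199). Klra5 lost its call without CD4 DTx replicate 2 or CD8 DTx replicates 1 and 2 (limma, adjusted p between 0.0536 and 0.064). Crtam lost its call without any 1 of the 6 DTx libraries (limma, adjusted p between 0.0662 and 0.127). Klra7, Klra3, Klra6 and Cd160 kept their calls in all 6 fits.

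Other genes that natural killer cells express varied widely among the CD8 libraries. Ncr1, the defining receptor NKp46, was at 17.6, 2147 and 599 normalized reads in CD8 DTx and 89.8, 115 and 26.3 in CD4 DTx. Tyrobp, an adaptor of activating receptors, was at 38.8, 2204 and 953 in CD8 DTx and 78.6, 98.2 and 75.1 in CD4 DTx. Klrb1c (NK1.1) was at 292, 2964 and 1265 in CD8 DTx and 444, 95.1 and 149 in CD4 DTx. Replicate 2 was the highest and replicate 1 the lowest CD8 library for all 3, as for Klra7. Cd160, Klra3, Klra5, Klra6 and Gzma were also highest in replicate 2, but lowest in replicate 3. Cd244 was highest in replicate 1. The 9 gamma-delta T cell markers present in the data summed to between 519 and 805 in CD4 DTx and between 3284 and 6442 in CD8 DTx. Of these, 8 were tested and 0 called by limma, although gamma chain genes share sequence. The part of natural killer or gamma-delta T cells in the CD8 libraries was not tested.

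Some chemokine ligands were higher in CD8 cells. Of 13 tested, 4 were called, all higher in CD8 DTx, with a median log2 fold change of -1.80 (-2.15 with genes at the floor of 1 lineage set to their lower bound and those at the floor of both left out). For 2 others, among them Ccl1, all CD4 libraries lay above all CD8 libraries (6.02% over all genes tested). Ccl3, an inflammatory chemokine, was at 382, 242 and 294 normalized reads in CD4 DTx and 6637, 2932 and 4026 in CD8 DTx, a log2 fold change of -3.83 (adjusted p = 0.0066 by limma, SE 0.55). Ccl4 and Ccl5, related inflammatory chemokines, had log2 fold changes of -3.64 (adjusted p = 0.00922 by limma, SE 0.57) and -3.17 (adjusted p = 0.00982 by limma, SE 0.50). Xcl1, which attracts cross-presenting dendritic cells, was at 0.935, 61.3 and 68.5 against 1458, 1045 and 1044, a log2 fold change of -5.85 (adjusted p = 0.0228 by limma, SE 1.09). Every CD8 library was above every CD4 library for the 4 genes. Ccl1, a ligand of CCR8, was at 1634, 1340.4 and 1647 against 1335, 1072 and 1053, with a log2 fold change of 0.42 (adjusted p = 0.898 by limma, SE 0.58). Without CD4 DTx replicate 2, 2 members were called. Ccl4 lost its call without CD4 DTx replicate 2 (limma, adjusted p = 0.0503). Ccl5 lost its call without CD4 DTx replicate 2 (limma, adjusted p = 0.0537). For Xcl1, DESeq2 on recovered reads gave -4.77. Xcl1 lost its call without CD8 DTx replicates 1 and 2 (limma, adjusted p between 0.0772 and 0.0792).

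Among chemokine receptors, 2 of 22 tested members were called higher in each lineage. Cx3cr1, the fractalkine receptor of effector CD8 cells, was at 511, 997 and 931 normalized reads in CD4 DTx and 3305, 9946 and 3318 in CD8 DTx, a log2 fold change of -2.61 (adjusted p = 0.0367 by limma, SE 0.55). Gpr183, an oxysterol receptor that guides helper cells in lymphoid tissue, was at 15005, 13046 and 10124 against 7789.8, 4134 and 3535, a log2 fold change of 1.37 (adjusted p = 0.039 by limma, SE 0.29), and Ccr4 is given above. Cx3cr1 lost its call without CD4 DTx replicates 1, 2 and 3 or CD8 DTx replicates 1 and 2 (limma, adjusted p between 0.0669 and 0.147). Gpr183 lost its call without CD4 DTx replicates 1, 2 and 3 or CD8 DTx replicates 2 and 3 (limma, adjusted p between 0.0655 and 0.155). In the type 1 list, 5 of 22 members were called higher in CD8 DTx and 1 higher in CD4 DTx, with a median log2 fold change of -0.29. Among the 5 were Ccl3, Ccl4, Ccl5 and Ly6c2, a surface antigen of memory and effector CD8 cells with a log2 fold change of -3.46 (adjusted p = 0.0158 by limma, SE 0.60). The CD4-high member was Ifngr2, a chain of the interferon-gamma receptor, at 110.3, 992 and 481 against 19.4, 47.2 and 12.1, a log2 fold change of 4.0 (adjusted p = 0.0196 by limma, SE 0.72). Ly6c2 lost its call without CD4 DTx replicate 2 or CD8 DTx replicates 1 and 2 (limma, adjusted p between 0.0599 and 0.0723). Ifngr2 lost its call without CD4 DTx replicates 2 and 3 or CD8 DTx replicate 1 (limma, adjusted p between 0.0646 and 0.0723). Without CD4 DTx replicate 2, 1 type 1 gene was called higher in CD8 DTx, and 3 were without CD8 DTx replicate 1 or 2. In the type 17 list 1 of 10 members, Il21, was called.

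Proliferation genes had lower values in CD4 cells than in CD8 cells throughout. All 45 tested members had a negative log2 fold change, between -2.16 and -0.49 with a median of -1.29, and for all 45 the CD4 library was below the CD8 library in each same-numbered pair. In 41 of 45, all 3 CD8 libraries lay above all 3 CD4 libraries (7.88% over all genes tested). The mean level of the list, in log2(normalized reads + 1), was 9.19, 9.85 and 9.64 in CD4 DTx and 10.7, 11.4 and 10.5 in CD8 DTx. Single genes seldom passed the test. Mcm5, a subunit of the replicative helicase, was at 1746, 3245 and 3209 normalized reads in CD4 DTx and 5412, 8531 and 5719 in CD8 DTx and was the 1 member called, its log2 fold change being -1.29 (adjusted p = 0.0443 by limma, SE 0.28). Rrm1, a subunit of ribonucleotide reductase, was at 1884, 3753 and 3351 against 6338, 10387 and 5280.4, with a log2 fold change of -1.29 (adjusted p = 0.0999 by limma, SE 0.35). With the replicate block, 19 members were called, all higher in CD8 DTx, among them Mcm6 and Rrm1 (adjusted p = 0.0318 and 0.0226 by limma), and DESeq2 called 10 and edgeR 0. Mcm5 lost its call without any 1 of the 6 DTx libraries (limma, adjusted p between 0.0587 and 0.183). Without CD8 DTx replicate 3, limma called 2 members, and it called 0 without any other single DTx library. In PBS 42 of the 45 were also lower in CD4 cells, with a median of -1.13.

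**Figure D3:**
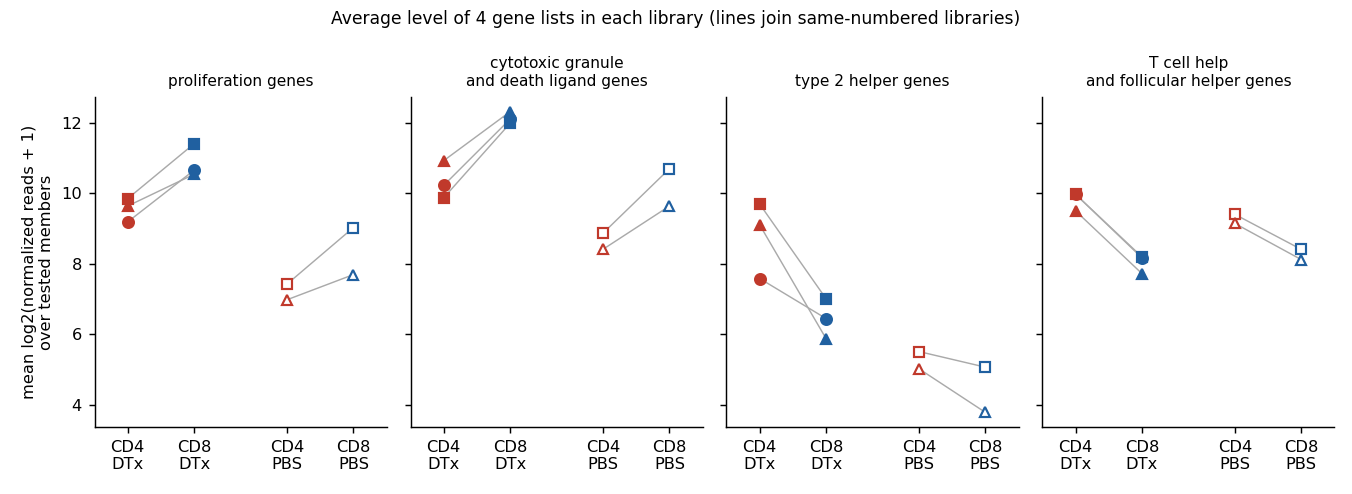
Mean level of the tested members of 4 gene lists in each library, in log2(normalized reads + 1), for CD4 (red) and CD8 (blue) cells after DTx (filled) or PBS (open), with lines joining same-numbered libraries. The proliferation and cytotoxic means rise from CD4 to CD8 on every line, and the type 2 and help means fall on every line. CD4 DTx replicate 1 is the lowest of the 3 CD4 DTx libraries for type 2 genes.

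Some costimulatory genes were higher in each lineage. Of 27 tested, 6 were called higher in CD4 DTx and 3 higher in CD8 DTx, with a median log2 fold change of 0.58. Beside Cd40lg, Tnfsf11, Tnfsf8 and Tnfrsf4, the CD4-high members were Tnfrsf25 (DR3) and the tetraspanin Cd81. Tnfrsf25, the receptor of the cytokine TL1A, was at 1938, 1272 and 1358 normalized reads in CD4 DTx and 241, 227 and 143 in CD8 DTx, a log2 fold change of 2.91 (adjusted p = 0.00248 by limma, SE 0.36). Cd27, the receptor of CD70, was at 3478, 2562 and 2114 against 7354, 6966 and 4668, a log2 fold change of -1.22 (adjusted p = 0.0268 by limma, SE 0.24). Cd86 and Slamf7 were the other CD8-high members, with log2 fold changes of -1.94 (adjusted p = 0.0181 by limma, SE 0.34) and -1.72 (adjusted p = 0.0396 by limma, SE 0.37). The groups did not overlap for any of these genes. Tnfrsf25 kept its call without any single DTx library. Cd81 lost its call without CD4 DTx replicates 1, 2 and 3 or CD8 DTx replicates 1 and 3 (limma, adjusted p between 0.0662 and 0.145). Cd27 lost its call without CD4 DTx replicates 2 and 3 or CD8 DTx replicates 1 and 2 (limma, adjusted p between 0.098 and 0.106). Cd86 lost its call without CD4 DTx replicate 2 or CD8 DTx replicate 1 (limma, adjusted p between 0.0556 and 0.0662). Slamf7 lost its call without CD4 DTx replicates 2 and 3 or CD8 DTx replicates 1 and 2 (limma, adjusted p between 0.124 and 0.168). Of the list, 3 members were called higher in CD4 DTx without CD4 DTx replicate 2, and none higher in CD8 DTx by limma without CD4 DTx replicate 2 or CD8 DTx replicate 1.

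Of 17 inhibitory checkpoint receptors tested, 2 were called higher in each lineage, with a median log2 fold change of -0.40. Cd5, a brake on T cell receptor signals, was at 12019, 16335 and 13884 normalized reads in CD4 DTx and 4009, 4866 and 4131 in CD8 DTx, a log2 fold change of 1.69 (adjusted p = 5.83e-04 by limma, SE 0.17). Cd200r1, an inhibitory receptor of the immunoglobulin family, was at 4462, 2999 and 2265 against 1344, 691 and 572, a log2 fold change of 1.94 (adjusted p = 0.0314 by limma, SE 0.39). Cd160 and Cd244, given above, were the CD8-high pair. Pdcd1, which encodes PD-1, was at 14652, 9488 and 10031 against 30565, 17086 and 17329.8, with a log2 fold change of -0.90 (adjusted p = 0.478 by limma, SE 0.44), 95% interval -1.85 to 0.05. Cd5 kept its call without any single DTx library. Cd200r1 lost its call without CD4 DTx replicates 1 and 2 or CD8 DTx replicates 2 and 3 (limma, adjusted p between 0.0701 and 0.121). Among 23 transcription factors of exhaustion, Maf was called higher in CD4 DTx and Tox, a factor of exhausted cells, higher in CD8 DTx. Tox was at 1159, 926 and 893 against 2892, 1764 and 1676, a log2 fold change of -1.05 (adjusted p = 0.0396 by limma, SE 0.23). Tox lost its call without CD4 DTx replicates 2 and 3 or CD8 DTx replicates 1 and 2 (limma, adjusted p between 0.0772 and 0.139).

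Of 32 cytokine receptors tested, 4 were called higher in CD4 DTx and 0 higher in CD8 DTx (median log2 fold change 0.07). They were Il9r, Ifngr2, Il1rl1 and Il1r2, of which Il9r was at 357, 678 and 439.8 normalized reads in CD4 DTx and 0, 50.1 and 0 in CD8 DTx, a log2 fold change of 7.0 (adjusted p = 0.0362 by limma, SE 1.47). With 2 CD8 libraries at 0 the size depends on the scale, and DESeq2 on recovered reads gave 4.88. Il9r lost its call without CD4 DTx replicates 1, 2 and 3 or CD8 DTx replicates 1 and 3 (limma, adjusted p between 0.0678 and 0.13). Without CD4 DTx replicate 2 or 3, 1 of the 32 was called. Of 40 T cell receptor signalling genes, Trat1, Cd5 and Cd6 were called higher in CD4 DTx. Trat1, an adaptor that stabilises the receptor complex, was at 5052, 6168 and 3242 against 693, 1463 and 357, a log2 fold change of 2.71 (adjusted p = 0.0116 by limma, SE 0.44), and Cd6, a scavenger receptor family relative of Cd5, had one of 1.07 (adjusted p = 0.0215 by limma, SE 0.20). Trat1 lost its call without CD4 DTx replicate 2 (limma, adjusted p = 0.0593). Cd6 lost its call without CD4 DTx replicates 2 and 3 or CD8 DTx replicates 1 and 2 (limma, adjusted p between 0.0743 and 0.0898).

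The remaining lists held few calls. In the lists of interferon-stimulated genes (40), integrins and adhesion molecules (31), naive and stem-like genes (23), residency and Ly6 genes (21) and MHC class II pathway genes (13), the called members were Iigp1 (log2 fold change 2.49), Icam1 (-1.0), Ly6c2, Xcl1 and Cd86. Tcf7, a factor of naive and stem-like cells, was at 8799, 9575 and 8824 normalized reads in CD4 DTx and 4346, 6869 and 4389 in CD8 DTx, with a log2 fold change of 0.83 (adjusted p = 0.752 by limma, SE 0.63). Of 29 glycolysis, 28 immediate early and 47 ribosomal protein genes, limma called 0, and 7, 2 and 0 had an unadjusted p under 0.05. With the replicate block limma called 3 glycolysis genes, Eno3, Egln3 and Hif1a, and 0 genes of the other two lists. DESeq2 called 5 glycolysis genes, 1 immediate early gene and 0 ribosomal protein genes, and edgeR called 0 in these 3 lists. Icam1 lost its call without any 1 of the 6 DTx libraries (limma, adjusted p between 0.0676 and 0.157). Iigp1 kept its call without any single DTx library.

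**Figure D4:**
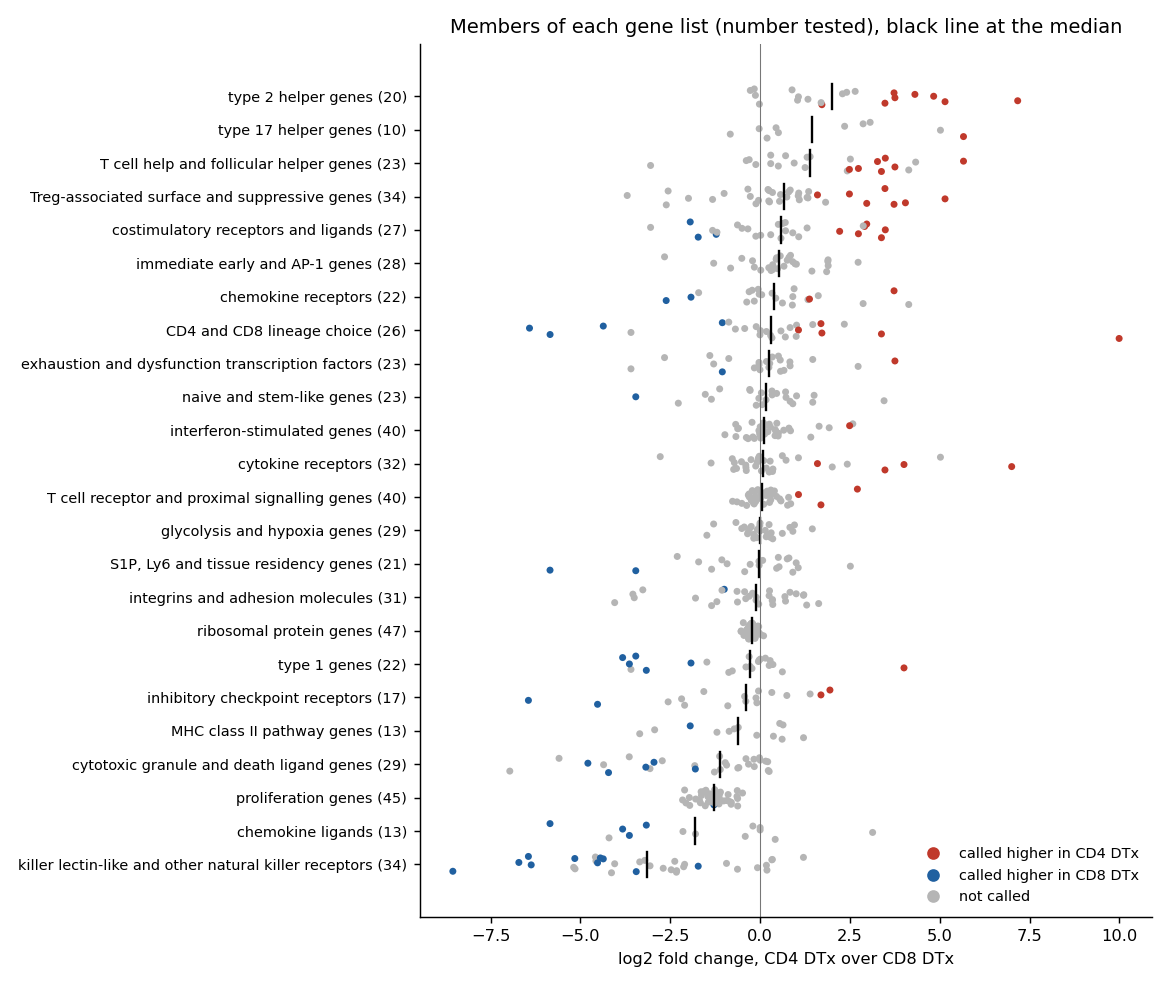
Log2 fold change (CD4 DTx over CD8 DTx) of each tested member of 24 gene lists, with the number tested in parentheses and a black line at each list's median. Genes called higher in CD4 DTx (red) gather in the type 2, help and Treg-associated lists at the top, and genes called higher in CD8 DTx (blue) in the natural killer receptor, chemokine ligand and cytotoxic lists at the bottom.

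The largest called differences included genes with no place in these lists. Of the CD4-high genes, Hc, which encodes complement component C5, was at 301, 102 and 42.1 normalized reads in CD4 DTx and 0 in all CD8 DTx libraries, at least 36.8-fold higher (adjusted p = 0.00375 by limma). Lgals7, which encodes galectin-7, was at 429, 843 and 585 against 12.9, 11.6 and 2.69, a log2 fold change of 6.11 (adjusted p = 0.00375 by limma, SE 0.80). Nxpe4 and Fgd2, a guanine nucleotide exchange factor for Cdc42, were at least 33.4- and 19.7-fold higher in CD4 cells (adjusted p = 0.00388 and 0.0068 by limma). Ampd3, an AMP deaminase, was at 158, 388 and 241 against 8.31, 0 and 10.8, a log2 fold change of 5.69 (adjusted p = 0.0066 by limma, SE 0.83). In PBS, Ampd3 was at 888 and 808 in CD4 cells and 338 and 345 in CD8 cells, a log2 fold change of 1.31. Wisp1, a matricellular protein gene, Npas2, a circadian transcription factor, and St6galnac1, a sialyltransferase, had values between 32.7 and 531 in CD4 DTx and between 0 and 11.6 in CD8 DTx. Wisp1 lost its call without CD4 DTx replicates 2 and 3 or CD8 DTx replicates 1, 2 and 3 (limma, adjusted p between 0.0624 and 0.149). Npas2 lost its call without CD4 DTx replicate 2 or CD8 DTx replicate 1 (limma, adjusted p between 0.0539 and 0.0593). St6galnac1 lost its call without CD4 DTx replicates 2 and 3 or CD8 DTx replicates 1 and 2 (limma, adjusted p between 0.0804 and 0.12).

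Of the CD8-high genes, P2ry12, an ADP receptor best known from platelets and microglia, was at 0 in all CD4 DTx libraries and at 162, 49.1 and 91.5 normalized reads in CD8 DTx, at least 25.5-fold higher (adjusted p = 0.0066 by limma). It was listed at 0 in all 7 PBS libraries. Pald1, Olfm1 and Rasl12 were also at 0 in every CD4 DTx library, and were at least 32.8-, 29.5- and 21.4-fold higher in CD8 cells (adjusted p = 0.00707, 0.0208 and 0.0143 by limma). Smyd1, a methyltransferase known from muscle, was at 226, 205 and 304 in CD8 DTx, at least 62.1-fold higher (adjusted p = 0.0148 by limma), and BC035044 was at least 64.4-fold higher (adjusted p = 0.0143 by limma). Emid1 was at 0.935, 1.02 and 0 against 108, 122 and 137, at least 31.0-fold higher in CD8 cells (adjusted p = 2.42e-04 by limma). In PBS, Emid1 was at 174 and 248 in CD4 cells and 328 and 279 in CD8 cells, a log2 fold change of -0.54. Hc, Nxpe4, Lgals7, Fgd2, Ampd3, P2ry12, Pald1 and Emid1 kept their calls without any single DTx library. Olfm1 lost its call without CD4 DTx replicates 2 and 3 or CD8 DTx replicates 1 and 2 (limma, adjusted p between 0.0584 and 0.0785). Smyd1 lost its call without CD4 DTx replicate 3 or CD8 DTx replicates 1 and 2 (limma, adjusted p between 0.0519 and 0.0556). BC035044 lost its call without CD4 DTx replicate 2 or CD8 DTx replicates 1 and 2 (limma, adjusted p between 0.0511 and 0.0634). Rasl12 lost its call without CD4 DTx replicate 2 or CD8 DTx replicates 1 and 2 (limma, adjusted p between 0.0518 and 0.0595).

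To see which lineage differences were also present in Treg-sufficient tumors, the 208 genes were read in CD4 PBS and CD8 PBS, whose 4 libraries are shared with neither DTx group. Of the 95 CD4-high genes, 87 had the same direction in PBS (91.6%), as did 92 of the 113 CD8-high genes (81.4%), against 62.2% of all genes tested. In PBS, 31 genes (0.245%) were called higher in CD4 cells and 106 (0.837%) higher in CD8 cells. They included 14 of the 95 CD4-high genes (14.7% of these and 45.2% of the 31) and 26 of the 113 CD8-high genes (23.0% of these and 24.5% of the 106). Both CD4 PBS libraries lay above both CD8 PBS libraries for 64 of the 95 (20.7% over all genes tested), and below them for 80 of the 113 (21.7%). The median log2 fold change was 2.36 in DTx and 0.92 in PBS for CD4-high genes, and -2.95 in DTx (-2.91 with floor genes at their bound) and -1.41 in PBS for CD8-high genes. The genes were chosen by their DTx values, not by their PBS values.

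Some lineage genes were called in both conditions and others were not. Il1rl1 had a log2 fold change of 5.92 in PBS (adjusted p = 2.30e-04 by limma), with 84.7 and 41.6 normalized reads in CD4 PBS and 0 in both CD8 PBS libraries. Cd40lg had one of 5.78 (adjusted p = 1.20e-04 by limma), Cst7 one of -3.18 (adjusted p = 8.68e-04 by limma) and Cd160 one of -4.0 (adjusted p = 0.00386 by limma). Maf was at 283 and 177 in CD4 PBS and 183 and 65.3 in CD8 PBS, with a log2 fold change of 1.02 (adjusted p = 0.595 by limma). Tnfsf8 was at 2152 and 2192 in CD4 PBS and 2031 and 1970 in CD8 PBS, with a log2 fold change of 0.12. Il5 was at 8.20 and 0 in CD4 PBS and Il4 at 1.37 and 0.661, and both were at 0 in CD8 PBS, so that neither lineage expressed them much above the floor. The test of the difference between the conditions called 6 genes (0.0474%), of which Prf1 was the only one among the 208. Prf1 was at 1427 and 1404 in CD4 PBS and 5663 and 3488 in CD8 PBS, so that the log2 fold change was -1.65 in PBS and -4.79 in DTx (adjusted p of the interaction = 0.0447 by limma). For Maf and Il5 the same test gave adjusted p = 0.191 and 1 (limma).

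**Figure D5:**
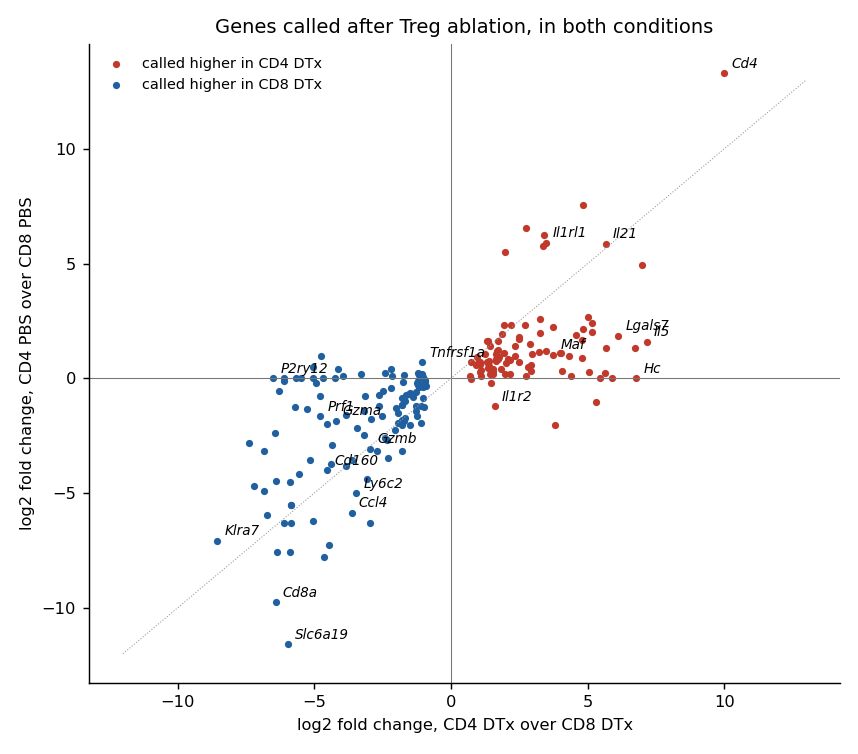
Log2 fold change of CD4 over CD8 cells in DTx (x axis) and in PBS (y axis) for the 95 genes called higher in CD4 DTx (red) and the 113 called higher in CD8 DTx (blue), with a dotted line of equality. Most red points lie above and most blue points below the horizontal line at 0 (87 of 95 and 92 of 113), many of them closer to 0 in PBS than in DTx.

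Transcripts of the other lineage in each library were set beside the differences, since the gates can let through some cells. Cd8b1 in CD4 DTx came to 0.437%, 2.68% and 3.86% of its CD8 DTx mean, and Cd4 in CD8 DTx came to 1.56%, 0% and 0.152% of its CD4 DTx mean. Of the 111 other CD8-high genes, 72 had a higher percentage than Cd8b1 in all 3 CD4 DTx libraries and 21 had a lower or equal one in all 3. Gzmb, at 16.3%, 9.97% and 12.5%, was among the 72. Prf1 was at 2.36%, 3.58% and 5.37%, higher than Cd8b1 in every library. Klra7, at 0 in all CD4 DTx libraries, was among the 21. The median percentage over the called genes was 13%, 14% and 14.7% for CD8-high genes in CD4 DTx and 17.7%, 20.5% and 18.0% for CD4-high genes in CD8 DTx. The part of carried-over cells in single genes was not tested.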

How the data were processed

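RNA was sequenced from flow-sorted tumor T cells, by SmartSeq2 per the labels and by another low-input kit per the study's methods. The processing notes name FastQC, cutadapt and DESeq2 and the NCBIM37 (mm9) genome, and the methods hisat2, uniquely mapped reads and an intergenic read normalization. Strand and counter are not given in the sources used here, so overlapping and antisense genes are uncertain. The authors deposited 1 table with a normalized signal per gene and library, labelled FPM. In every library 100% of values were whole multiples of 1 step (tolerance 0.01 of a read), and dividing by it recovered whole reads, between 17475086 and 28548352 in the 6 DTx libraries. The table listed 12963 genes. Symbols of 21 rows had become dates and these rows were counted but not named. Floors cover counting error only, since no molecular identifiers are described. The intervals of log2 fold changes come from the limma fit and measure the spread between libraries.

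Samples were grouped by title. Genes that reached 10 normalized reads in 2 or more libraries of 13 were fitted as log2(value + 1) with limma 3.58.1 in R 4.3.3 (5 group means, eBayes with trend, Benjamini-Hochberg), since the values are not counts as deposited. The study's own test was DESeq2. Libraries of 1 DTx group differed by more than sampling noise, with a chi-square between 44.7 and 252 times its degrees of freedom, and none was merged. The study describes its replicates as isolated on separate days, and neither it nor the labels say whether a number marks the same day in both lineages. Deviations of same-numbered CD4 and CD8 DTx libraries correlated at r = 0.36, 0.21 and 0.59 for replicates 1, 2 and 3, so the number was also used as a block. Alternatives were other pseudocounts, filters, normalizations, samples and variance priors, and edgeR 4.0.16 and DESeq2 1.42.0 on recovered reads. Scripts were tested on simulated data. The members and gene lists were chosen with earlier results of these data known. Named genes were the label check, the 12 called genes with the largest fold change in each direction, up to 6 called genes per direction and up to 3 abundant uncalled genes of each list, and the interaction calls. Members of a list called only with the block, and the natural killer genes Ncr1, Tyrobp and Klrb1c, were named outside this rule. Uncalled genes that the rule allows are in part given by counts only, and 1 called gene is not reported here. Promoters came from RefSeq on another build than the authors' alignment.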

Additional observations from a re-analysis of the deposited data

Results flagged for a closer look

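The CD4 to CD8 difference itself differed between DTx and PBS for 6 genes by the interaction test. The values given are the log2 difference in DTx minus that in PBS. Scin, an actin-severing protein gene, had a difference of 7.17 (adjusted p = 0.0281 by limma), with 426, 187 and 412 normalized reads in CD4 DTx, 48.0, 74.2 and 86.1 in CD8 DTx, 0 in both CD4 PBS libraries and 54.7 and 16 in CD8 PBS. Ccl1 had one of 6.99 (adjusted p = 0.0281 by limma) and Fam20a one of 5.22 (adjusted p = 0.0354 by limma). Both were at 0 in CD4 PBS and present in CD8 PBS, and the lineages were close to each other in DTx. Prf1, a called member of the CD8-high genes, had one of -3.14 (adjusted p = 0.0447 by limma). Ly6c1 had one of -6.99 (adjusted p = 0.0146 by limma), with 649, 844 and 531 normalized reads in CD4 DTx and 512, 1596 and 633 in CD8 DTx, against 4210.4 and 4249 in CD4 PBS and 64.4 and 24.0 in CD8 PBS. Myo10, an unconventional myosin gene, had one of -11.58 (adjusted p = 0.0447 by limma), with 619 and 789 in CD4 PBS and 1.21 and 0 in CD8 PBS. Each rests on 2 libraries per PBS group. For Scin, Ccl1, Fam20a and Myo10 a PBS group was at or under the floor, so the size of the difference depends on the scale. The count of interaction calls was 19 with a pseudocount of 0.1 and 1 with a pseudocount of 5. Leaving out single DTx libraries gave between 1 and 14 interaction calls.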

How the results depend on the processing

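All 82 called genes named in the text kept their direction in the alternative settings that gave them a value, 18 for Cd4 (no adjusted p by DESeq2), Klra5, P2ry12 and St6galnac1 (under the filter of 50 normalized reads) and 19 for the others, in which the calls themselves often changed. For the fits that left out DTx libraries, the kept direction follows from the lack of overlap. Fitted to the 6 DTx libraries alone, limma called 20 genes higher in CD4 DTx and 50 higher in CD8 DTx (16 and 43 over 4-fold), and with the replicate block on these 6 it called 0 in each direction, also over 4-fold, with 1695 genes at an unadjusted p under 0.05. The replicate block over all libraries gave 184 and 230, and 79 genes also called in the same direction in PBS in place of 40, and it ended no call. DESeq2 on recovered reads called 226 and 294 (97 and 136 over 4-fold), 326 genes in PBS in place of 137, 126 in both conditions and 85 in the interaction in place of 6. edgeR called 65 genes higher in CD8 DTx (37 over 4-fold), and limma without a mean trend called 58 higher in CD4 DTx and 12 in the interaction. The interaction count was 19 with a pseudocount of 0.1, 1 with a pseudocount of 5 and 10 with quantile normalization. By direction alone, 179 of the called genes were alike in PBS.

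Leaving out DTx libraries gave between 21 and 117 genes higher in CD4 DTx and between 31 and 109 higher in CD8 DTx, between 16 and 63 and between 24 and 68 over 4-fold, between 22 and 40 called in both conditions, and between 0 and 14 in the interaction. Without replicate 3 of both lineages they were 27 and 32 (20 and 26 over 4-fold). TMM factors, filters of 0 and 50 normalized reads, and, chosen after seeing the data, reads per column total moved no count of genes called or separated by lineage by over 1.5 times. Runx3, not called in any setting, had a log2 fold change of -0.0098 by DESeq2, between -0.22 and 0.16 without single DTx libraries and -0.0019 without replicate 3 of both lineages, and Ly6c1 had one between -0.60 and 0.22 without single DTx libraries. The causes were not tested. Low transcripts near the floor of 3 recovered reads could not be compared at this depth.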

Other observations

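The genes in this paragraph were chosen after their values were seen. Of the 208 called genes, 22 (10 higher in CD4 DTx and 12 higher in CD8 DTx) kept their call in all 18 alternative settings other than the block fitted to the 6 DTx libraries alone. Among them, Ramp3, a partner of peptide hormone receptors, was at 1219, 1312 and 1081 normalized reads in CD4 DTx and 77.6, 38.5 and 39.0 in CD8 DTx, a log2 fold change of 4.59 (adjusted p = 1.32e-04 by limma, SE 0.38). Tmem64 was at 5937, 8645 and 7971 against 783, 666 and 888 and Tm6sf1 at 501, 494 and 531 against 3288, 3075 and 3675, with log2 fold changes of 3.26 (adjusted p = 1.32e-04 by limma, SE 0.27) and -2.71 (adjusted p = 6.88e-05 by limma, SE 0.20). Slc6a19, a neutral amino acid transporter gene, was at 0 in all CD4 DTx libraries, 96.1, 93.4 and 25.6 in CD8 DTx and 2962 and 3199 in CD8 PBS. Cysltr1, a leukotriene receptor gene, was at 1713, 5817 and 2577 in CD4 DTx and 111, 126 and 52.5 in CD8 DTx, a log2 fold change of 5.01 (adjusted p = 0.0267 by limma, SE 0.97). Cysltr1 lost its call without CD4 DTx replicates 2 and 3 or CD8 DTx replicates 1, 2 and 3 (limma, adjusted p between 0.0597 and 0.113).

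Of 18 T cell receptor beta variable genes tested, 2 were called, both higher in CD8 DTx, and of 27 alpha variable genes limma called 0 (4 at an unadjusted p under 0.05, edgeR 0, DESeq2 1). Trbv14 was at 238, 388 and 246 normalized reads in CD4 DTx and 952, 1275 and 789 in CD8 DTx, a log2 fold change of -1.80 (adjusted p = 0.0198 by limma, SE 0.32), and Trbv29 at 118, 166 and 117 against 329.8, 601 and 377, a log2 fold change of -1.67 (adjusted p = 0.0367 by limma, SE 0.35). In PBS both CD8 libraries were also above both CD4 libraries for these genes. Trbv14 lost its call without CD4 DTx replicate 3 or CD8 DTx replicates 1 and 2 (limma, adjusted p between 0.0607 and 0.0804). Trbv29 lost its call without any 1 of the 6 DTx libraries (limma, adjusted p between 0.0525 and 0.15). Of the 208 called genes, 5 were fully separated in the opposite direction in PBS, Il1r2 and Kif13a among the CD4-high and Rftn2, Tnfrsf1a and Tsga10 among the CD8-high genes. Over all genes tested, both CD8 PBS libraries lay above both CD4 PBS libraries for 21.7% and below them for 20.7%. These 5 were thus a smaller share of the called genes than such separations were of all genes. Kif13a lost its call without CD4 DTx replicates 2 and 3 or CD8 DTx replicates 1 and 2 (limma, adjusted p between 0.0707 and 0.0988). Tnfrsf1a, a receptor of tumor necrosis factor, was at 431, 485 and 531 in CD4 DTx and 922, 1209.6 and 899 in CD8 DTx, against 1051 and 1283 in CD4 PBS and 731 and 689 in CD8 PBS. Its interaction was not called (adjusted p = 0.179 by limma). Tnfrsf1a lost its call without CD4 DTx replicates 1, 2 and 3 or CD8 DTx replicates 1 and 2 (limma, adjusted p between 0.0654 and 0.116).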
